A study of Mus musculus with 16 samples.

Results

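The unfolded protein response and the integrated stress response were described here through 32 genes, taken by symbol from a list of endoplasmic reticulum (ER) chaperones and folding enzymes, ER-associated degradation genes, stress sensors and targets of the transcription factor ATF4. All 32 were among the 16094 genes of the expression table, and all 32 passed the filter on low values. RNA had been measured in 16 tumours of B16R2L, a mouse melanoma line, in 4 groups of 4. The cells expressed a control hairpin (shCtrl) or one that targets Mdk (shMdk), which encodes midkine, a secreted growth factor, and the host mice received either IgG2a as a control or RMP1-14, an antibody against the checkpoint receptor PD1. The sample labels give the anti-PD1 dose as 10 mg/kg, and the series' design text gives the same number with another unit. Injections began at a tumour volume of 100 mm3 and were given 2 times a week over 2 weeks. The groups were therefore shCtrl with IgG2a, shCtrl with anti-PD1, shMdk with IgG2a and shMdk with anti-PD1, and every group shared the B16R2L background and an injected antibody. Each line carried 1 hairpin, so that the loss of Mdk and any other difference between the lines cannot be told apart. Host strain and age were not given in the sources used here.

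Proteins that enter the secretory pathway fold in the ER with the help of chaperones such as BiP (Hspa5) and of protein disulfide isomerases, and those that fail are sent back to the cytosol for degradation. When unfolded protein accumulates, 3 sensors in the ER membrane respond: IRE1 (Ern1) splices the mRNA of Xbp1, ATF6 (Atf6) is cut to release a transcription factor, and PERK (Eif2ak3) phosphorylates the translation factor eIF2 alpha. Phosphorylated eIF2 alpha, which other kinases also produce when amino acids or heme run short, slows translation in general but favours that of ATF4, whose targets supply amino acids, restart translation or, through CHOP (Ddit3), promote cell death. The sensors act through cleavage, splicing and phosphorylation, none of which is read by an RNA count at the 3′ end of a transcript. The values below are therefore RNA levels of the genes and not a measure of sensor activity.

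The responses act on DNA through short elements that lie close to the start of their targets. A window from 250 bases before to 50 bases after each RefSeq gene start (build GRCm38.p6) was found by symbol for 29 of the 32 genes, all but Atf6, Hyou1 and Manf. It was searched on both strands for the ER stress element (ERSE, bound by ATF6 and XBP1 with NF-Y), which is CCAAT, any 9 bases and CCACG, for the related ERSE-II, which is ATTGG, any 1 base and CCACG, and for the CHOP-ATF4 composite element TGATGNAAN (CARE), the cyclic AMP response element TGACGTCA (CRE) and the XBP1 element TGACGTGG (UPRE). The ERSE, the ERSE-II and the reverse strand of the UPRE share the letters CCACG, and no matches in these genes overlapped. The ERSE was present in 8 of the 29 genes (Calr, Canx, Creld2, Dnajc3, Hsp90b1, Hspa5, Pdia6 and Syvn1), against 0.137% of 27025 genes with a window. The ERSE-II was present in 2 (Dnajb11 and Herpud1), against 0.0444% of genes, and the CARE in 5 (Asns, Atf3, Chac1, Herpud1 and Trib3), against 4.50%. The CRE was found in Ppp1r15a alone, against 2.03%, and the UPRE in none of the 29, against 0.714%. Because the genes were listed for their part in these responses, the shares are a description and not a test. The windows below belong to genes whose values are given for every tumour. They run 5′ to 3′ on the strand of the gene. The capitals mark the element, which on the reverse strand reads as its reverse complement. Hspa5, Dnajc3 and Herpud1 lie on the plus strand of the genome and Hsp90b1, Asns and Atf3 on the minus strand.

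Hspa5, ERSE, chr2:34772010-34772058: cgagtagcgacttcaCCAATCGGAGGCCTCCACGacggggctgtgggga
Hsp90b1, ERSE, chr10:86705623-86705671: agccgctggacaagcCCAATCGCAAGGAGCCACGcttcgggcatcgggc
Hsp90b1, ERSE on the reverse strand, chr10:86705518-86705566: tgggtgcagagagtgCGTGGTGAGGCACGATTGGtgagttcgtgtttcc
Dnajc3, ERSE, chr14:118937812-118937860: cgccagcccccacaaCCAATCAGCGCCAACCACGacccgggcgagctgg
Herpud1, ERSE-II, chr8:94386362-94386402: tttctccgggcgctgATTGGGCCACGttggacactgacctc
Herpud1, CARE on the reverse strand, chr8:94386301-94386339: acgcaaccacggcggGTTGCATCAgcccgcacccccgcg
Asns, CARE, chr6:7693210-7693247: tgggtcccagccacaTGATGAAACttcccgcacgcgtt
Atf3, CARE on the reverse strand, chr1:191183421-191183459: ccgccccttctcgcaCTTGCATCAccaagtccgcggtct

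Of the genes shown, Dnajc3 and Atf3 passed a test in the comparisons below, and Hspa5, Hsp90b1, Herpud1 and Asns did not pass with limma in any of the 7. These matches describe the letters in the windows and do not show that a factor was bound in these tumours.

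Reads recovered from the deposited values ran from 5686405 to 8886334 per tumour. Mdk itself lay between 601 and 1161 normalised counts in the 8 shCtrl tumours and between 96.5 and 323 in the 8 shMdk tumours, with no overlap (limma, average log2 fold change -2.16 ± 0.25 SE, adjusted p = 3.88e-05). The 5 libraries of shCtrl IgG2a tumours 1 and 2, shMdk IgG2a tumours 3 and 4 and shMdk anti-PD1 tumour 1 stood apart: in them, genes with a GC-rich 3′ end had higher values (slopes of 0.09 to 0.19 log2 units per 10 percentage points of GC, against -0.13 to 0.00 in the other 11). In 2 others, shCtrl anti-PD1 tumour 2 and shMdk IgG2a tumour 1, 4.47% and 3.17% of reads fell on Gm42418, a gene model at a ribosomal RNA repeat, against at most 1.56% elsewhere. For the stress response genes listed above, calls that changed without these libraries are given both ways. Many of their values that did not pass also moved without the 5, as described below. Calls of genes outside that list, such as Mdk, cell type markers and other pathway genes, are given with all tumours only.

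The 32 genes together took 0.427% to 0.649% of the reads of a tumour, and Hspa5 alone 0.107% to 0.174%. With 1 tag read per transcript, counts can be set beside each other without a correction for length, although capture of 3′ ends can differ between genes. Hspa5 had the highest mean over the 16 tumours, 11277 normalised counts, above that of 99.5% of all genes in the table. It was followed by 3 further chaperones, Canx at 4902, Calr at 4403 and Hsp90b1 at 4292, and then by Atf4 at 3519. The lowest means were those of Eif2ak3 at 65.0, Sesn2 at 66.6, Ppp1r15a at 68.0, Chac1 at 68.5 and Atf3 at 79.5, which still lay above those of 42.8% to 46.1% of genes. Neighbours in this order often did not differ beyond their spread: Canx, Calr and Hsp90b1 had overlapping ranges, as did the 5 lowest genes. The ratio of the highest to the lowest tumour was 1.63 for Canx, 1.67 for Pdia3, 1.72 for Hspa5 and 1.73 for Sel1l. It reached 36.7 for Syvn1, 14.1 for Ppp1r15a, 11.3 for Atf3, 9.57 for Manf and 8.50 for Xbp1.

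**Figure D1:**
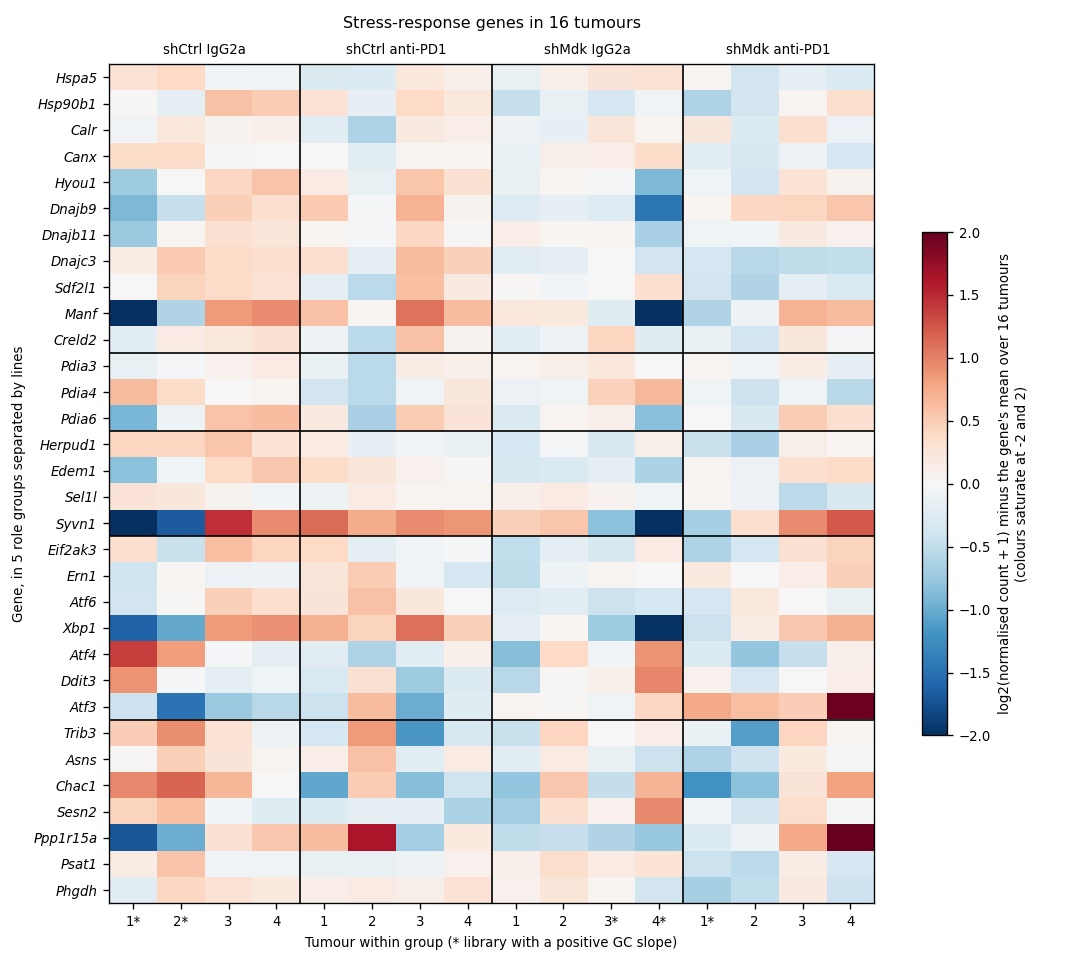
Each row is 1 of the 32 genes, in the 5 role groups, and each column is 1 of 16 tumours in 4 groups. Colour gives log2(normalised count + 1) minus the gene's mean over the 16 tumours. The columns marked with an asterisk, the 5 libraries with a positive GC slope, are blue for Syvn1, Manf and Xbp1 but differ in depth, with Manf pale in shMdk IgG2a tumour 3, and Dnajc3 is redder in the shCtrl than in the shMdk columns.

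Few of these genes passed a test in any comparison. With limma and a Benjamini-Hochberg adjusted p under 0.05, 1 of 32 passed between shMdk and shCtrl tumours under anti-PD1, where 5.93% of the 14672 genes tested passed, 0.995% with a lower value. None passed under IgG2a, against 1.74% of all genes, although 4 had an unadjusted p under 0.05 with a lower value in shMdk (3.46% of all genes) and 1 with a higher value (6.24%); edgeR called 0 and DESeq2 1. Over both antibodies, 2 of 32 passed, Dnajc3 lower and Atf3 higher in shMdk, against 8.4% of all genes, 2.17% lower and 6.23% higher. Counted over both directions together, none of these shares exceeded that of all genes. The count of 1 under anti-PD1 became 2 without shCtrl anti-PD1 tumour 2 (Atf3 added) and 3 without shMdk anti-PD1 tumour 3 (Atf3 and Phgdh added). The count of 2 on average became 4 without shCtrl IgG2a tumour 1 (Atf6 and Phgdh added), without shMdk anti-PD1 tumour 3 (Herpud1 and Phgdh) or without shMdk anti-PD1 tumour 4 (Herpud1 and Hsp90b1). Most values lay on the lower side in shMdk without passing. The log2 fold change was below 0 for 28 of 32 genes under IgG2a, against 51.6% of all genes, and for 21 of 32 under anti-PD1, against 52.2%. The medians were -0.23 and -0.10, beside -0.01 and -0.02 over all genes. The difference between the antibody effects of the lines passed for none of the 32 with limma, edgeR or DESeq2, as for 0% of all genes with limma, and 0 of the 32 had an unadjusted p under 0.05, against 1.1% of all genes on the lower and 2.35% on the higher side.

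Without the 5 libraries with a positive GC slope, which leaves 2 tumours in each IgG2a group, 4 in shCtrl anti-PD1 and 3 in shMdk anti-PD1, the values that did not pass shifted. For the difference between the antibody effects, 6 of 32 then had an unadjusted p under 0.05, against 0 with all tumours. Hsp90b1, Dnajb9, Edem1, Eif2ak3 and Xbp1 were on the higher side (5.66% of all genes) and Sel1l on the lower (3.76%), with limma adjusted p of 0.466 or more. Edem1 had the smallest p of these, with a difference of 0.80 ± 0.25, beside 0.35 ± 0.33 with all tumours. Between hairpins under IgG2a, 11 of 32 had an unadjusted p under 0.05 with a lower value in shMdk (7.26% of all genes) and 0 with a higher value (5.81%), with limma adjusted p of 0.0867 or more. These were Hsp90b1, Hyou1, Dnajb9, Dnajc3, Manf, Herpud1, Edem1, Syvn1, Eif2ak3, Atf6 and Xbp1. Several of these genes varied together once group means were removed, such as Hyou1 and Manf (r = 0.94 over all tumours and 0.95 without the 5 libraries). Counts of the 32 genes, here and above, are therefore not counts of independent observations. The log2 fold change was below 0 for 27 of 32 genes under IgG2a (50% of all genes) and for 19 of 32 under anti-PD1 (51.8%), with medians of -0.29 and -0.11. It changed sign in 5 and 2 of the 32 genes in these comparisons and moved by over 1.5 times with the same sign in 23 and 15.

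**Figure D2:**
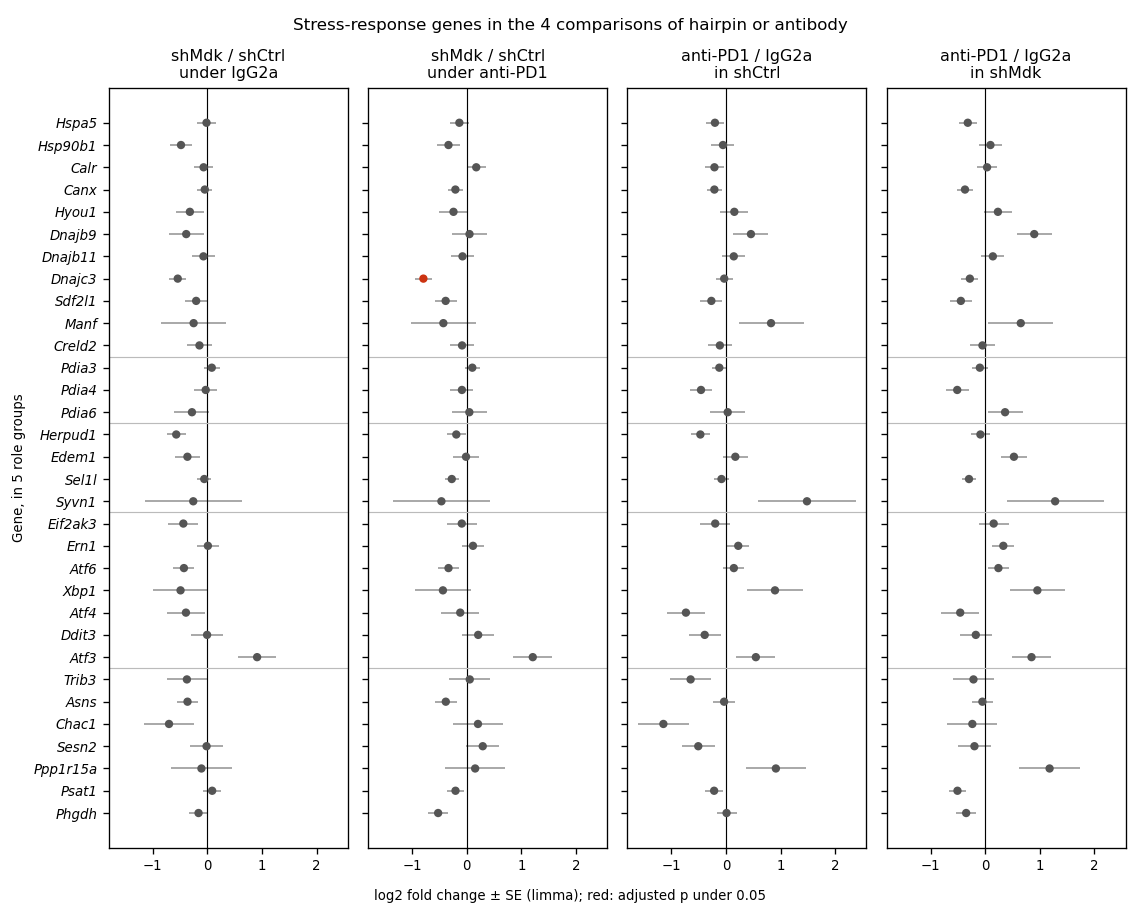
Points give the log2 fold change of each of the 32 genes and bars its SE (limma) in 4 comparisons, with genes that passed in red. Dnajc3 under anti-PD1, at -0.79, is the only red point, and the points of the ER-associated degradation gene Syvn1 have the widest bars.

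Dnajc3 fell in shMdk tumours. It encodes p58IPK, a J-domain partner of BiP in the ER lumen that is also known as an inhibitor of PERK, and lies at chr14:118937976-118981697 (GRCm38). In shCtrl tumours its normalised counts were 1604, 2079, 1876 and 1819 under IgG2a, and 1819, 1276, 2234 and 2010.3 under anti-PD1. In shMdk tumours they were 1237, 1269.7, 1447 and 1105 under IgG2a, and 1131, 981, 1010.2 and 1028 under anti-PD1. The hairpin groups did not overlap under either antibody, which held for 1.93% of all genes in the lower direction under IgG2a and for 5.2% under anti-PD1. The means were 1835 ± 409 and 1038 ± 65.1 (SD, n = 4 each) under anti-PD1, a log2 fold change of -0.79 ± 0.15 SE (limma adjusted p = 0.00445). Under IgG2a they were 1845 ± 195 and 1265 ± 141, a log2 fold change of -0.54 ± 0.15 that did not pass (limma adjusted p = 0.0984), although it did with DESeq2 (adjusted p = 0.0252). The average over both antibodies was -0.67 ± 0.11 (limma adjusted p = 5.51e-04), and the 2 effects did not differ detectably (difference -0.25 ± 0.22). Without the 5 libraries with a positive GC slope the values were -0.84 ± 0.16 under anti-PD1 and -0.70 ± 0.13 on average (limma adjusted p = 0.0131 and 0.00842). In whole tumours, fewer cells of a type and less RNA per cell cannot be told apart, for this gene as for the others.

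The other 10 chaperones and lumenal proteins did not pass in any comparison of hairpins or antibodies. Hspa5, which encodes BiP, had 13572, 14658, 10734 and 10545 normalised counts in shCtrl tumours under IgG2a and 9112, 9171, 12865 and 11973 under anti-PD1. With the Mdk hairpin the values were 10003, 11877, 13232 and 13626 under IgG2a and 11592, 8521, 9766 and 9181 under anti-PD1. All 4 groups overlapped, and the shMdk to shCtrl log2 fold change was -0.02 ± 0.17 under IgG2a and -0.13 ± 0.17 under anti-PD1 (SE; limma adjusted p = 0.995 and 0.758), and 0.03 ± 0.19 and -0.22 ± 0.15 without the 5 libraries with a positive GC slope. Hsp90b1 encodes GRP94, the HSP90 of the ER. It had 4240.3, 3652, 6282 and 5918 normalised counts in shCtrl IgG2a and 5073, 3714, 5472 and 4802 in shCtrl anti-PD1 tumours, against 3021, 3746, 3319 and 3991 in shMdk IgG2a and 2706, 3234, 4320.4 and 5182 in shMdk anti-PD1 tumours. The hairpin groups overlapped under both antibodies, and the average log2 fold change between hairpins was -0.41 ± 0.15 (limma adjusted p = 0.107). It passed without shMdk anti-PD1 tumour 4 (-0.49 ± 0.14, limma adjusted p = 0.0492).

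Sdf2l1 encodes a lumenal protein that works with the co-chaperone Dnajb11. Its normalised counts were 284, 390.0, 373 and 349.8 in shCtrl IgG2a, 251, 195, 434 and 323 in shCtrl anti-PD1, 288, 276, 284 and 358 in shMdk IgG2a and 219, 187, 249 and 230.2 in shMdk anti-PD1 tumours. All shMdk anti-PD1 tumours lay below all shMdk IgG2a tumours, a pattern held by 4.1% of all genes, and the log2 fold change of -0.45 ± 0.20 did not pass (limma adjusted p = 0.381). Group means of the remaining 7 spanned 4063 to 4607 for Calr and 4083 to 5500.3 for Canx, the lectin chaperones of glycoproteins, and 633 to 868 for Hyou1, which serves BiP as an exchange factor. They spanned 72.9 to 130.0 for Dnajb9 and 474 to 545 for Dnajb11, 2 further co-chaperones of BiP, and 469.8 to 863 for Manf and 214 to 245 for Creld2, both small ER proteins that stress induces. Over the 11 chaperones and lumenal proteins, all 11 log2 fold changes lay below 0 under IgG2a with a median of -0.21, and 9 of 11 under anti-PD1, also with a median of -0.21.

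None of the 3 disulfide isomerases, which form and rearrange disulfide bonds in the ER, passed in any of the 7 comparisons. Pdia4 had 983, 817, 627 and 655 normalised counts in shCtrl IgG2a and 485, 435, 596 and 738 in shCtrl anti-PD1 tumours, and 585, 596, 867 and 996 in shMdk IgG2a and 594, 474, 598 and 432 in shMdk anti-PD1 tumours. The groups of either line overlapped by antibody. Its anti-PD1 to IgG2a log2 fold changes were -0.46 ± 0.21 in shCtrl and -0.51 ± 0.21 in shMdk (limma adjusted p = 0.798 and 0.339). Without the 5 libraries with a positive GC slope they were -0.22 ± 0.20 and -0.25 ± 0.21 (limma adjusted p = 0.9995 and 0.684). Pdia3 was the steadiest of the 3, with group means of 2409 to 2725, and Pdia6 ranged from 1688 to 2166.

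Among the 4 ER-associated degradation genes, none passed in any of the 7 comparisons with limma. Herpud1 encodes a membrane protein that helps assemble the degradation complex. It had 535, 532, 584 and 481 normalised counts in shCtrl IgG2a, 445, 354, 382 and 360.4 in shCtrl anti-PD1, 308, 388, 318 and 428 in shMdk IgG2a and 290.5, 253, 427 and 407 in shMdk anti-PD1 tumours. The shCtrl IgG2a tumours were the highest group and lay above all tumours of the other 3 groups. Under IgG2a the hairpins differed by -0.57 ± 0.17 on the log2 scale (limma adjusted p = 0.127), and in shCtrl the antibodies by -0.47 ± 0.17 (limma adjusted p = 0.798). Neither comparison had an overlap, as for 1.93% and 1.13% of all genes in the lower direction. The average between hairpins, -0.38 ± 0.12, did not pass with limma (adjusted p = 0.0600) and did with DESeq2 (adjusted p = 0.0402), and with limma once shMdk IgG2a tumour 4 or shMdk anti-PD1 tumour 3 or 4 was left out (adjusted p = 0.0421, 0.0297 and 0.0436). Sel1l and Syvn1 form the HRD1 ubiquitin ligase. Sel1l had group means of 788 to 1001, and Syvn1 of 60.9 to 133. Edem1, which extracts misfolded glycoproteins from the folding cycle, ranged from 226 to 329 and had no overlap between the antibodies in shMdk (log2 fold change 0.53 ± 0.23, limma adjusted p = 0.376).

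Of the 7 sensors and transcription factors, Atf3 alone passed. ATF3 is a transcription factor that stress, growth factors and inflammatory signals induce, and its gene spans chr1:191170296-191218039 (GRCm38). The CARE window printed above lies inside this span. It belongs to a RefSeq start other than the outermost start of the span on the minus strand. Normalised counts of Atf3 were 49.5, 23.4, 39.9 and 45.2 in shCtrl IgG2a, 49.7, 105, 33.5 and 56.6 in shCtrl anti-PD1, 70.1, 68.2, 63.5 and 90.4 in shMdk IgG2a and 115, 103, 94.9 and 264 in shMdk anti-PD1 tumours. Under IgG2a the hairpin groups did not overlap, as for 4.16% of all genes in the higher direction, and under anti-PD1 shCtrl tumour 2 reached into the shMdk range. The means were 39.5 ± 11.4 and 73.1 ± 11.9 under IgG2a and 61.2 ± 30.8 and 144 ± 80.4 under anti-PD1 (SD, n = 4 each). Averaged over the antibodies, Atf3 rose by 1.06 ± 0.25 on the log2 scale in shMdk (limma adjusted p = 0.0121). Neither single comparison passed with limma (0.91 ± 0.36 under IgG2a, adjusted p = 0.340, and 1.21 ± 0.36 under anti-PD1, adjusted p = 0.0539). The latter passed without shCtrl anti-PD1 tumour 2 (1.51 ± 0.34, limma adjusted p = 0.0153) and without shMdk anti-PD1 tumour 3 (1.36 ± 0.38, limma adjusted p = 0.0489). Without the 5 libraries with a positive GC slope, the average was of like size but did not pass (0.98 ± 0.32, limma adjusted p = 0.109).

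**Figure D3:**
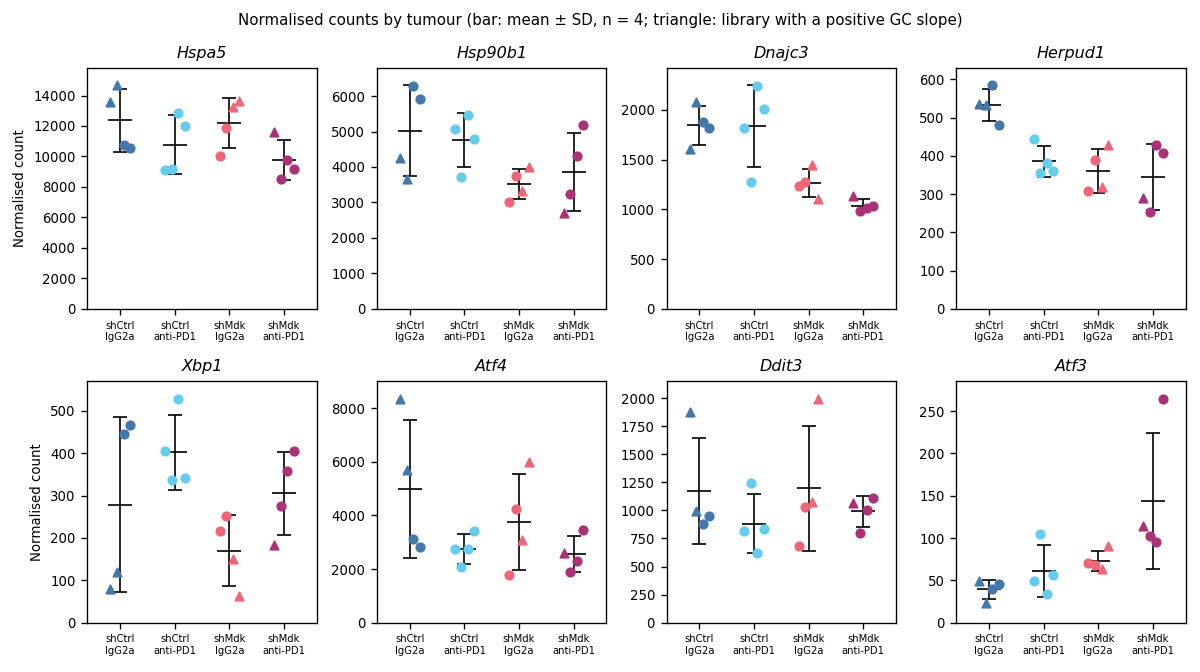
Points are normalised counts of 8 genes in the 4 tumours of each group, bars the mean ± SD, and triangles the libraries with a positive GC slope. Dnajc3 in the shMdk groups lies below the shCtrl groups under both antibodies, Atf3 lies higher in shMdk with 1 tumour at 264, and the triangles sit low for Xbp1 and, in the IgG2a groups, mostly high for Atf4.

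The hairpin groups also differed in markers of other cell types. The summed normalised counts of 12 macrophage and monocyte markers ran from 529 to 1358 in shCtrl IgG2a, 417 to 1766 in shCtrl anti-PD1, 1766 to 3856 in shMdk IgG2a and 3676 to 8422 in shMdk anti-PD1 tumours. On average, 12 of 12 were higher in shMdk with limma, as were 7 of 8 T and NK cell markers and 5 of 7 B and plasma cell markers, whereas 0 of 8 melanocyte lineage markers passed. Of 6 fibroblast markers, 0 passed on average and 3 were higher in shMdk under anti-PD1 (median log2 fold change 2.10). Of 6 endothelial markers, 2 and 3 were higher, and 0 of 12 cell cycle markers passed in either. The 8 melanocyte lineage markers, which define the labelled tissue, summed to 157860 to 192287 normalised counts in shCtrl IgG2a, 140632 to 190408 in shCtrl anti-PD1, 131996 to 153063 in shMdk IgG2a and 114062 to 149812 in shMdk anti-PD1 tumours. On average 7 of these 8 markers and 12 of 12 cell cycle markers had a log2 fold change below 0, with medians of -0.22 and -0.24, the side on which most of the 32 genes lay. No marker measured was at 0 in all tumours. Immediate early and heat shock genes, which respond to handling as well as to treatment, summed to 4605 in shMdk anti-PD1 tumour 4, where Atf3 was 264, and to 2055 to 3315 in the other 15 tumours. In shCtrl anti-PD1 tumour 2, the highest shCtrl tumour for Atf3, the sum was 2642, near the median of 2621 over all tumours. Fos, 1 gene of this list picked after its values were seen, was at 340.3 in shMdk anti-PD1 tumour 4. It was at 156 in shCtrl anti-PD1 tumour 2 and at 21.1 to 81.0 in the other 14. The phosphatase subunit gene Ppp1r15a was highest in these same tumours, at 223 and 169.6. Of the 12 immediate early and heat shock genes, 1 was higher in shMdk on average and 2 were under anti-PD1 with limma. Between the antibodies, 0 of the 12 passed in either line. At an unadjusted p under 0.05 (limma), 7 were higher with anti-PD1 in shMdk (6.54% of all genes) and 1 in shCtrl (1.9%). The median log2 fold changes were 1.11 and 0.11. The part of these cells and genes in the Dnajc3, Atf3 and Ppp1r15a results, and in the lower values of the other genes, was not tested.

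The remaining regulators gave no call in any of the 7 comparisons, and several varied more within a group than between groups. Xbp1, the transcription factor spliced by IRE1, had 79.9, 120.4, 446 and 467 normalised counts in shCtrl IgG2a and 405, 336, 527 and 342 in shCtrl anti-PD1 tumours, spliced and unspliced forms together. It had 216, 253, 149.8 and 62.0 in shMdk IgG2a and 184, 274, 358 and 405 in shMdk anti-PD1 tumours. The lowest tumour of each group was a library with a positive GC slope where the group held one. With all tumours the average between hairpins was -0.46 ± 0.36 (limma adjusted p = 0.523), and without those 5 libraries Xbp1 passed at -0.59 ± 0.15 (limma adjusted p = 0.0385). Atf4 had 8334, 5698, 3106 and 2812 normalised counts in shCtrl IgG2a, 2742, 2084, 2764 and 3437 in shCtrl anti-PD1, 1776, 4232, 3083 and 5986 in shMdk IgG2a and 2610.3, 1878, 2316 and 3439 in shMdk anti-PD1 tumours. Its 2 highest tumours in shCtrl IgG2a were the ones that were lowest for Xbp1. Ddit3, which encodes CHOP, had 1874, 991, 881 and 949.8 in shCtrl IgG2a, 817, 1246, 619 and 838 in shCtrl anti-PD1, 687, 1032, 1079 and 1990.0 in shMdk IgG2a and 1067, 797, 1003 and 1109 in shMdk anti-PD1 tumours. The reference annotation holds 2 overlapping gene models named Ddit3, so its count is uncertain where reads could be split. The shMdk to shCtrl log2 fold changes of Atf4 were -0.39 ± 0.35 and -0.12 ± 0.35, and those of Ddit3 -0.01 ± 0.29 and 0.21 ± 0.29, under IgG2a and anti-PD1. Without those 5 libraries they were -0.11 ± 0.36 and -0.14 ± 0.27 for Atf4 and -0.12 ± 0.28 and 0.17 ± 0.22 for Ddit3. Among the sensors, Atf6 averaged -0.38 ± 0.14 (limma adjusted p = 0.102). It passed with DESeq2 (adjusted p = 0.0449) and, with limma, without shCtrl IgG2a tumour 1 (adjusted p = 0.0288). Group means were 119 to 179.8 for Atf6, 119 to 151 for Ern1 and 54.9 to 76.7 for Eif2ak3.

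The 7 ATF4 targets likewise gave no limma call in any comparison. Asns, asparagine synthetase, had 566, 781, 669.5 and 579.7 normalised counts in shCtrl IgG2a, 615, 842, 482 and 626 in shCtrl anti-PD1, 477, 627, 502 and 413 in shMdk IgG2a and 363, 420.1, 639.8 and 552 in shMdk anti-PD1 tumours. The groups overlapped, and the average between hairpins was -0.37 ± 0.14 (limma adjusted p = 0.122), and -0.22 ± 0.16 without the 5 libraries with a positive GC slope (limma adjusted p = 0.529). Phgdh and Psat1 encode the first steps of serine synthesis. Phgdh did not pass between hairpins under anti-PD1 (means 1332 ± 71.6 and 949.8 ± 265, log2 fold change -0.52 ± 0.18, limma adjusted p = 0.113), with shMdk tumour 3 at 1336 and the other 3 at 738 to 886. Without that tumour Phgdh passed (-0.70 ± 0.17, limma adjusted p = 0.0200). Psat1 had 1005, 1354, 862 and 856 in shCtrl IgG2a, 817, 819.6, 849.8 and 968 in shCtrl anti-PD1, 978, 1162, 1018 and 1099.6 in shMdk IgG2a and 678, 633, 1011 and 718 in shMdk anti-PD1 tumours. In shMdk, 3 of the 4 anti-PD1 tumours lay below all IgG2a tumours for Psat1 (-0.51 ± 0.16, limma adjusted p = 0.251). Group means were 173 to 252 for Trib3, a pseudokinase that CHOP and ATF4 induce, and 47.9 to 102 for Chac1, which degrades glutathione. They were 51.0 to 77.6 for the stress-induced sestrin Sesn2 and 35.9 to 102 for Ppp1r15a, which directs the dephosphorylation of eIF2 alpha.

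Anti-PD1 gave no call among the 32 genes in either line. In shCtrl, 0% of all genes passed with limma. There, 3 of the 32 had an unadjusted p under 0.05 (Pdia4, Herpud1 and Chac1, each lower, as for 1.89% of all genes, with 0 of 32 against 1.9% on the higher side), and edgeR and DESeq2 called 0 of the 32. In shMdk, 0.0341% of all genes passed, and 9 of the 32 had an unadjusted p under 0.05, 4 higher (6.54% of all genes) and 5 lower (5.91%), with 0 called by edgeR or DESeq2. The higher ones were Dnajb9 (0.90 ± 0.32), Edem1 (0.53 ± 0.23), Atf3 (0.85 ± 0.36) and Ppp1r15a (1.18 ± 0.55), which had no overlap between the antibodies, as 4.42% of all genes. The lower ones were Canx (-0.37 ± 0.14), Sdf2l1 (-0.45 ± 0.20), Pdia4 (-0.51 ± 0.21), Sel1l (-0.30 ± 0.13) and Psat1 (-0.51 ± 0.16), with adjusted p of 0.251 or more. Averaged over the lines, none of the 32 passed either, against 0.0477% of all genes; at an unadjusted p under 0.05 there were 6 higher and 8 lower, against 9.03% and 7.74% of all genes, and edgeR and DESeq2 called 0. The medians of the 32 were -0.07, -0.05 and -0.08 in shCtrl, in shMdk and on average, beside 0.01, 0.03 and 0.02 over all genes. Without the 5 libraries with a positive GC slope they were -0.19, 0.11 and -0.08, beside -0.01, 0.02 and 0.00. In that fit 1 of the 32 had an unadjusted p under 0.05 in shCtrl (Herpud1, lower, as 0.987% of all genes), and Pdia4 and Chac1 did not. In shMdk 4 were higher (Dnajb9, Edem1, Xbp1 and Ppp1r15a, 6.27% of all genes) and 3 lower (Sel1l, Psat1 and Phgdh, 4.66%), and on average there were 0 on either side. The sign of the log2 fold change differed from that with all tumours in 14 of 32 genes in shCtrl and in 6 in shMdk.

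Other genes of these pathways were counted from lists chosen with earlier results of the data known. Their calls are from the fit to all tumours, and values without the libraries that stood apart are not given for them. Over all genes tested, 2.17% were lower and 6.23% higher in shMdk on average, and 0.995% lower and 4.93% higher under anti-PD1. Of 23 other ER folding genes, 1 was lower in shMdk, both under anti-PD1 and on average, and none was higher. It was Fkbp11, a lumenal prolyl isomerase of secretory cells, with 179 to 319.8 normalised counts in shCtrl and 108 to 189.6 in shMdk under anti-PD1 (log2 fold change -0.80 ± 0.21, limma adjusted p = 0.0323). Of 24 other ER degradation and translocation genes, 3 were lower on average and 0 higher: Sec61b (-0.77 ± 0.22), a subunit of the translocon, Sec63 (-0.32 ± 0.10), its partner, and Ubxn4 (-0.37 ± 0.11), a membrane adaptor of the degradation machinery, with limma adjusted p of 0.0340, 0.0474 and 0.0482. Of 26 other stress sensing and eIF2 control genes, 2 were higher on average, a share near that of all genes, and 0 lower. They were Cebpb, a transcription factor and partner of CHOP that is also used by myeloid cells (1.11 ± 0.22, limma adjusted p = 0.00316), and Bcl2l11, which encodes the cell death protein BIM (0.54 ± 0.14, limma adjusted p = 0.0213). Of 19 aminoacyl-tRNA synthetase genes, 1 passed in each of these comparisons, Vars under anti-PD1 (-0.61 ± 0.17, limma adjusted p = 0.0447) and Dars on average (-0.27 ± 0.08, limma adjusted p = 0.0394), both lower. None of 23 other amino acid and ATF4-linked genes passed, and the smallest unadjusted p on average was that of Pck2 (-0.32 ± 0.14, limma adjusted p = 0.187). Under IgG2a, and in the antibody comparisons, no gene of the 5 lists passed with limma, and under anti-PD1 those that did were Fkbp11, Vars and Cebpb (1.26 ± 0.31, adjusted p = 0.0220). The medians of the 5 lists on average were -0.10, -0.20, -0.02, -0.14 and -0.06 in the order given, beside -0.02 over all genes.

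Within groups, several of the largest differences among the 32 genes followed the 5 libraries with a positive GC slope. Others did not: in shCtrl anti-PD1, which held no such library, Ppp1r15a ran from 33.5 to 169.6 normalised counts and Trib3 from 81.8 to 333. In shCtrl IgG2a, tumours 1 and 2 differed from tumours 3 and 4 by -3.53 on the log2 scale for Syvn1, with 7.88 and 21.3 against 193 and 135 normalised counts. The same split was -2.28 for Manf, -2.21 for Xbp1, -1.77 for Ppp1r15a, -1.10 for Pdia6 and -1.07 for Dnajb9. It ran the other way for Atf4 at 1.22, Chac1 at 0.73, Sesn2 at 0.67, Trib3 at 0.62 and Ddit3 at 0.58. In shMdk IgG2a the split was -2.67 for Syvn1, -1.40 for Manf, -1.27 for Xbp1, 0.65 for Atf4, 0.80 for Ddit3 and 0.70 for Sesn2. It was smaller for Ppp1r15a at -0.20, Pdia6 at -0.25, Chac1 at 0.22 and Trib3 at 0.07. In shMdk anti-PD1, where 1 library stood against 3, it was -1.49 for Syvn1, -1.01 for Manf and -0.89 for Xbp1, but -1.29 for Chac1 and 0.08 for Atf4. Dnajc3 hardly moved with it, at -0.02, 0.01 and 0.17 in the 3 groups.

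**Figure D4:**
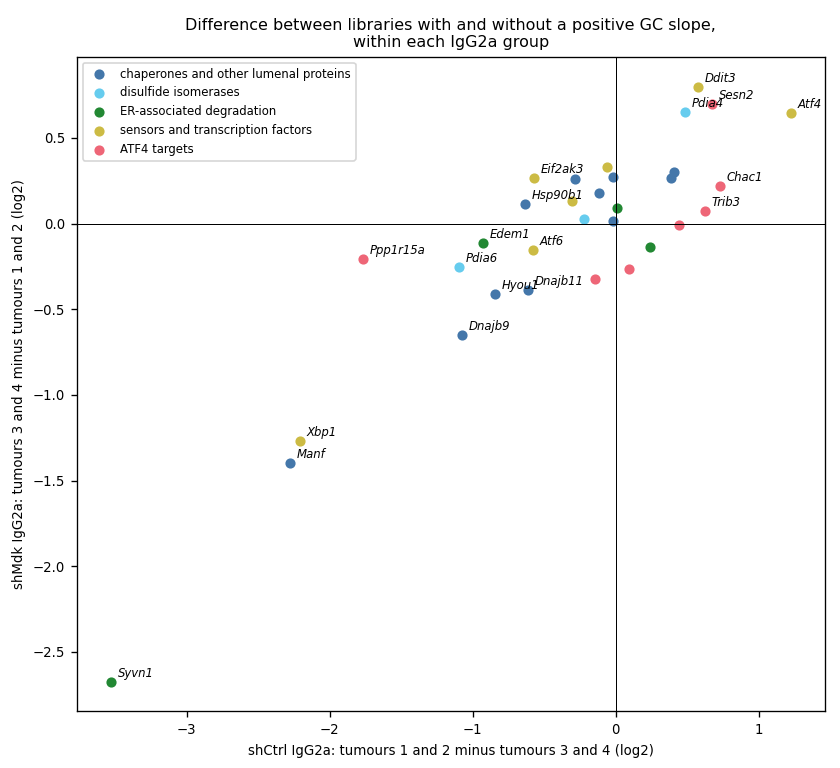
Each point is 1 of the 32 genes. The axes give the log2 difference between libraries with and without a positive GC slope in the shCtrl IgG2a group (horizontal) and in the shMdk IgG2a group (vertical). Syvn1, Manf and Xbp1 lie far to the lower left in both, and Atf4, Ddit3, Sesn2 and Pdia4 to the upper right.

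Across the 32 genes, the splits of the 2 IgG2a groups correlated at r = 0.88, against r = 0.52 across all 14672 genes. The sign was nevertheless the same in both groups for only 20 of the 32, beside 10382 of the 14672. Syvn1, Manf and Xbp1 had the lowest splits in both groups, and r was not taken without them. Genes are not independent replicates, and the values are given as a description. In both groups 3 of the 32 (9.38%) lay beyond 1 log2 unit in the same direction, as did 4.36% of all genes. The GC content of the last 300 bases of the transcript, with a median of 43.0% in the 32 genes and 42.3% in all genes, correlated with the split at r = 0.04 and -0.06 across the 32 and at 0.29 and 0.25 across all genes. What set these libraries apart was not tested. The labels give the RNA integrity number only as a mean of 8.6 and a range of 5.8 to 9.2, the same for every tumour. The RNA quality of single tumours is therefore not known here.

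How the genes varied together was described after group means were removed. Chaperones and lumenal proteins varied with each other at a median pairwise r of 0.45 over the 16 tumours and 0.74 over the 11 libraries without a positive GC slope, and with the disulfide isomerases at 0.52 and 0.74. ATF4 targets varied with each other at 0.52 and 0.57, and chaperones with ATF4 targets at -0.06 in both. Hyou1 and Pdia6 correlated at r = 0.97 over the 16 tumours and 0.96 over the 11, Syvn1 and Xbp1 at 0.97 and 0.60, and Trib3 and Asns at 0.75 and 0.99. These pairs were picked after their values were seen, and no median r over all genes is given beside the medians above. Where a group held 2 of the 11 libraries, removing its mean left 2 mirrored values, so that large r over the 11 arise easily. Of 6 pairs tested by permutation within groups, none passed by Pearson's r after adjustment over the 6. Ddit3 and its target Trib3 came closest (r = 0.56, permutation p = 0.0188, adjusted 0.113; Spearman's rho 0.68, adjusted 0.0410). Their r was 0.76 without the 2 tumours farthest from the median of Ddit3, and 0.91 within the 11 libraries (adjusted permutation p = 0.0890). Hspa5 and Sdf2l1 correlated at r = 0.54 (rho 0.54, adjusted permutation p = 0.175 and 0.244), at 0.36 without the 2 farthest tumours and at 0.85 within the 11 libraries. Hspa5 and Hsp90b1 correlated at -0.22 (rho -0.16, adjusted permutation p = 0.538 and 0.685), at -0.20 without the 2 farthest tumours and at 0.58 within the 11 libraries (adjusted permutation p = 0.212). The sign differed between these fits but neither value passed, so no sign was established for this pair. Atf4 and its target Asns correlated at -0.06 (rho -0.09, adjusted permutation p = 0.809 and 0.739) and at -0.02 without the 2 farthest tumours. Asns and Psat1 correlated at 0.52 (rho 0.39, adjusted permutation p = 0.171 and 0.363) and at 0.48 without the 2 farthest, and Hspa5 and Asns at -0.30 (rho -0.29, adjusted permutation p = 0.472 and 0.487) and at -0.33 without the 2 farthest.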

How the data were processed

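Per the labels' protocols, 3′-end libraries (oligo-dT primed, stranded) were sequenced and counted by strand. TopHat2 2.0.10 with Bowtie 1.0.0, HTSeq, DESeq2, FastQC 0.11.0 and SAMtools 0.1.19 are named in the submitters' processing notes, with build GRCm38 (mm10). The authors deposited 1 signal per gene and tumour, a read count divided by a DESeq2 size factor. Whole reads were recovered from 100% of values within 0.001. No per-sample column was left unused.

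limma 3.58.1 (R 4.3.3) was fitted to log2(normalised count + 1) with 4 group means, all 16 tumours and 12 residual degrees of freedom, for the 14672 genes with a mean of at least 5. The pseudocount understates the change of low genes. Adjusted p (Benjamini-Hochberg, over all genes within each of 7 comparisons) under 0.05 made a call. Averages weigh both antibodies, or both lines, equally. Alternatives were edgeR 4.0.16 and DESeq2 1.42.0 on recovered reads, TMM scaling, pseudocounts of 0.5 and 5, other filters, fewer groups and each tumour left out. Leaving out the 5 or the 2 libraries that stood apart was added after the data were seen. GC slopes used the last 300 bases of transcripts and a threshold of 0.05. Pairs were tested with 1e+05 permutations, two-sided. The scripts were tested on simulated data.

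Replicates are separate tumours per the labels, numbered here in accession order. The members and lists were chosen with earlier results of these data known. Values in every tumour were given for Hspa5, Hsp90b1, Sdf2l1, Xbp1, Atf4, Ddit3, Asns and Psat1, for each gene that passed, and for the gene of each role with the smallest p. From other pathway lists, up to 4 passing genes or else the 2 smallest p were eligible. Other genes with values in the text were picked after their values were seen.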

Additional observations from a re-analysis of the deposited data

Results flagged for a closer look

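Of 128 sets of 4 tumours (32 genes in 4 groups), 7 held a tumour far from the other 3 by Dixon's test, where chance gives about 1 in 20. Of these, 3 were shMdk IgG2a tumour 4: Dnajb9 at 35.7 normalised counts (the nearest other tumour 83.4), Dnajb11 at 321 (514) and Sdf2l1 at 358 (288). Dnajb11 was also flagged in shCtrl anti-PD1 tumour 3, at 667 against 513. Creld2 stood out in shMdk IgG2a tumour 3, at 303 against 208. Ddit3 was far above the rest in shCtrl IgG2a tumour 1, at 1874 against 991. Atf3 stood out in shMdk anti-PD1 tumour 4, at 264 against 115, and the average log2 fold change of Atf3 between hairpins was 0.89 ± 0.23 without that tumour (limma adjusted p = 0.0216). shMdk IgG2a tumours 3 and 4 and shCtrl IgG2a tumour 1 were among the libraries with a positive GC slope.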

How the results depend on the processing

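The number of the 32 genes called was 0 under every setting run for anti-PD1 in either line, for the average anti-PD1 effect and for the difference between the lines. Between hairpins under IgG2a it was 0, and 1 with DESeq2 (Dnajc3). Under anti-PD1 it was 1, and 2 with DESeq2 and without the 2 libraries high in Gm42418 (Atf3 added), with a range of 1 to 3 when each tumour was left out. On average it was 2, and 4 with DESeq2 (Atf6 and Herpud1 added), with a range of 2 to 4 when each tumour was left out. It stayed at 2 without the 5 libraries with a positive GC slope, but with Xbp1 in place of Atf3. The cause of these changes was not tested. Dnajc3 was called under each of these settings under anti-PD1 and on average. Pair correlations without removing group means were 0.68 for Hspa5 and Sdf2l1 (adjusted permutation p = 0.0258) and 0.60 for Ddit3 and Trib3 (adjusted 0.0424), and 0.12 for Atf4 and Asns. Within the 11 libraries they were 0.58 for Hspa5 and Hsp90b1 and 0.24 for Atf4 and Asns. Of 1764 alternative fold changes of the 12 genes given per tumour, 1663 kept direction and call, 0 reversed a call, 11 gained one and 1 lost it, and 89 changed sign without a call. The main fit called only 1 of these genes under anti-PD1 and 2 on average. Most of the 1663 were therefore fold changes that stayed without a call. Over all genes, calls under IgG2a numbered 255, 449 with DESeq2, 74 without the 5 libraries and 136 to 271 with each tumour left out. Under anti-PD1 they numbered 870, 1310 with DESeq2 and 443 to 858 with each tumour left out, and on average 1233, and 745 without the 5 libraries. For anti-PD1 against IgG2a they numbered 0 in shCtrl, 5 in shMdk and 7 on average, and 7, 244 and 220 with DESeq2. No paired analysis was possible because the labels carry no replicate numbers. With 4 tumours a group, a gene as variable as Syvn1 (SE 0.89) could not show a small difference.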
